A study of Mus musculus with 15 samples.

Results

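The 10 genes described here, Bcl2, Mcl1, Bcl2l11, Xiap, Atg5, Nrf1, Sirt1, Carm1, Cbx7 and Tgfbr1, have been reported elsewhere as targets of the microRNA miR-181 and act in cell survival, chromatin control or growth factor signalling. They were chosen by symbol, each symbol matched 1 row in both deposited tables, and they are 10 of 36265 genes with values. RNA was sequenced from the substantia nigra of 8 C57Bl/6J mice, 3 weeks after an adeno-associated virus (AAV) was injected on 1 side. In 3 mice the injected side received AAV-hSYN1-miR-181 (1.65e10 vector genomes) and the opposite side was left uninjected, which gave 3 injected and 3 uninjected libraries. In the GFP set the injected side received AAV-hSYN1-GFP (1e10 vector genomes), with 4 injected and 5 uninjected libraries, because mouse 5 gave an uninjected library only. The human synapsin 1 promoter in both vectors acts mainly in neurons, whereas the dissected tissue holds every cell type of the region.

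A microRNA pairs through its seed, bases 2 to 8 from the 5′ end, with sites that lie mostly in the 3′ untranslated region (3′ UTR) of messenger RNAs, and lowers their stability or translation. Sequencing of polyadenylated RNA registers the change in stability and not the change in translation. In neurons the prosurvival proteins BCL2 and MCL1 hold back mitochondrial cell death, BIM (the product of Bcl2l11) promotes it, and XIAP blocks caspases downstream of it. Mature miR-181 was not measured by this assay and vector transcripts were not analysed here, so the amount delivered in each mouse is unknown, and the labels do not say which member of the miR-181 family the vector carried.

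The members of the miR-181 family are shown because they share the seed that was searched for in the 10 genes. The sequences are from RefSeq on GRCm38.p6, written 5′ to 3′ with the seed in capitals.
miR-181a-5p: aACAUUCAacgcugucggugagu
miR-181b-5p: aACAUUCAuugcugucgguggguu
miR-181c-5p: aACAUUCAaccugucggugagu
miR-181d-5p: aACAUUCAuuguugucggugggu
All 4 mature sequences carried the seed ACAUUCA. Its match on the messenger strand is TGAATGT (bases 2 to 8) or GAATGTA (bases 2 to 7 followed by A), each counted as a 7-base match. The letters TGAATGTA, in which both overlap, were counted once, as an 8-base match. Only the sense strand was searched. Counts refer to the longest annotated 3′ UTR (GENCODE M21 on GRCm38), except where other annotated 3′ UTRs or coding sequences are named.

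Of the 10 genes, 9 had at least 1 match of 7 or 8 bases, against 23.8% of the 14283 tested genes with an annotated 3′ UTR. The 3′ UTRs of the 10 genes were also longer, with a median of 2431 bases against 1198 bases, and the share of genes with a match grew with length, being 3.61% up to 500 bases and 65.1% above 4000 bases. An 8-base match stood in 5 of the 10 (Bcl2, Bcl2l11, Carm1, Cbx7 and Tgfbr1), against 6.19% of the tested genes. Mcl1, Xiap, Atg5 and Sirt1 had 7-base matches only. Nrf1, which encodes a transcription factor of nuclear genes for mitochondrial proteins, had 0 matches in its longest 3′ UTR of 1781 bases and 1 in another annotated transcript. The coding sequences of the 10 genes held 0 matches. The 10 genes were listed as reported targets, and whether seed matches served to report them was not examined. The shares above are therefore a description of the list.

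The sites are printed below for the 4 genes whose RNA differed in miR-181 mice, for Atg5, which came next, and for the 8-base matches of Bcl2 and Bcl2l11, whose RNA did not pass. Each is 30 bases of the sense strand, 5′ to 3′, on GRCm38, with the match in capitals.
Carm1 (chr9:21588855-21588884, plus strand): aagggttcacctcaaactTGAATGTAcaaa
Cbx7 first site (chr15:79916294-79916323, minus strand): cccctccccctgcatattTGAATGTAgagg
Cbx7 second site (chr15:79915987-79916016, minus strand): agctttgttcagacgaccTGAATGTAttgg
Tgfbr1 first site (chr4:47411175-47411204, plus strand): tgtttccttggttcacttTGAATGTActgt
Tgfbr1 second site (chr4:47411923-47411952, plus strand): aggcagatatagttaataTGAATGTAcaag
Bcl2 (chr1:106539826-106539855, minus strand): gattataataatcaggacTGAATGTAgata
Bcl2l11 (chr2:128158530-128158559, plus strand): ttcagtaaatatttgttgTGAATGTAaaca
Mcl1 (chr3:95662513-95662542, plus strand): gcaggaatcaaatgactaaGAATGTAatag
Atg5 first site (chr10:44364186-44364215, plus strand): gctagcttgctgtccacatTGAATGTcaac
Atg5 second site (chr10:44364258-44364287, plus strand): ctagattcaataataaagaTGAATGTtttc
The same 8 capital letters thus stand in genes whose RNA fell (Carm1, Cbx7), rose (Tgfbr1) and did not pass (Bcl2, Bcl2l11). A match is a run of letters and was not tested as a binding site.

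**Figure D1:**
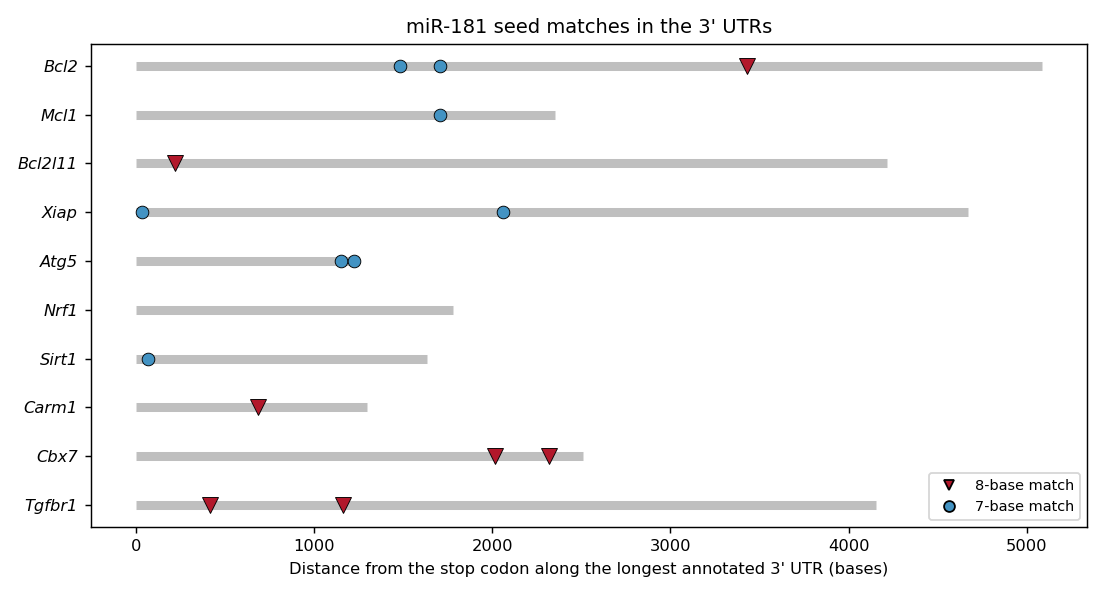
Grey bars give the length of each 3′ UTR searched, in bases from the stop codon, red triangles 8-base and blue circles 7-base matches to the miR-181 seed. Tgfbr1, Cbx7, Carm1, Bcl2 and Bcl2l11 carried 8-base matches, Cbx7 and Tgfbr1 having 2 each, and Nrf1 had 0 matches.

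On the miR-181 side, RNA of 4 of the 10 genes changed and it changed in both directions. Carm1 and Cbx7, which encode chromatin proteins, fell to 0.727 and 0.744 of the mean uninjected level. By the same ratio of means Tgfbr1, a receptor for transforming growth factor beta, rose 1.71-fold, and Mcl1, a prosurvival gene, rose 1.27-fold. In GFP mice 0 of the 10 passed, and 0 had an unadjusted p under 0.05, as 9.52% of all tested genes did. In bulk tissue, fewer cells of a type and less RNA per cell cannot be told apart. Within each set the p-values measure the spread between animals on the same side, and the 2 sides of a mouse are not paired. Values are abundances read as TPM, a scale corrected for transcript length and library total, divided by a size factor of each library, and tests are limma on log2(value + 0.5), with p adjusted over all genes tested and a threshold of 0.05. All 10 genes reached the mean of 1 needed for testing in every comparison. Among all genes 5.88% of 15453 were called in miR-181 mice (678 higher, 4.39%, and 230 lower, 1.49%; with each library centred on its median 634 higher and 468 lower). In GFP mice 1.35% of 15274 were called, with 1.34% of tested genes higher and 0.0131% lower (206 calls, 135 with mouse as a block on the 4 mice with both sides, and 108 on those libraries with no block). The median log2 change of the 10 genes was -0.02 in miR-181 mice and 0.08 in GFP mice, where the medians of all tested genes were 0.00 in both sets.

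The depth of single libraries is unknown. In the authors' deposited table the mean natural-log estimated counts correspond, per library, to between 133 reads (Bcl2l11) and 1581 reads (Mcl1) in miR-181 mice, and to between 49.8 (Bcl2l11) and 652 (Carm1) in GFP mice. Bcl2l11 was the least abundant of the 10 in all 4 groups. In GFP mice 1 injected and 1 uninjected library, both from mouse 1, held transcripts of 6 pituitary hormone genes at summed levels of 2451 and 50090, where the group medians were 8.43 and 5.93. Without that mouse 0 of the 10 genes passed in GFP mice, as with it.

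Carm1 (ENSMUSG00000032185, chr9:21546894-21592623, plus strand) encodes a protein arginine methyltransferase that marks histone H3 and acts as a transcriptional coactivator. It stood at 33.2, 29.2 and 31.1 on the miR-181 injected sides of mice 1, 2 and 3, and at 41.6, 43.1 and 43.9 on their uninjected sides. The highest injected library lay below the lowest uninjected one. Its log2 change was -0.46 ± 0.06 (SE; 95% interval -0.60 to -0.31; limma adjusted p = 0.0128), a decrease seen in 3 of 3 mice at -0.32, -0.55 and -0.49. In GFP mice Carm1 stood at 40.6, 45.4, 46.7 and 49.1 on the injected sides and at 43.1, 43.2, 43.7, 44.7 and 40.5 on the uninjected sides. These groups overlapped, with a log2 change of 0.07 (95% interval -0.06 to 0.20; limma adjusted p = 0.746). The other 8 arginine methyltransferase genes gave 0 calls in either set, and in miR-181 mice Prmt1 and Prmt5, the main enzymes of asymmetric and symmetric arginine dimethylation, stood at log2 changes of -0.03 and 0.14. Over the list of 9 the median log2 change was -0.08 in miR-181 mice and 0.03 in GFP mice.

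Cbx7 (ENSMUSG00000053411, chr15:79915807-79971119, minus strand) encodes a chromodomain protein that brings Polycomb repressive complex 1 to chromatin carrying trimethylated histone H3 lysine. The injected sides of miR-181 mice 1, 2 and 3 held 34.1, 32.7 and 34.3 units, against 43.8, 48.7 and 43.2 units on the uninjected sides. Again the groups did not overlap. The log2 change was -0.42 ± 0.06 (SE; 95% interval -0.57 to -0.27; limma adjusted p = 0.0158), lower in 3 of 3 mice. On the GFP injected sides Cbx7 stood at 52.1, 49.0, 48.0 and 47.1, against 47.4, 45.8, 44.0, 46.7 and 45.5 on the uninjected sides. It was higher on the injected side in 4 of 4 GFP mice with overlapping groups, and its log2 change of 0.09 (95% interval 0.00 to 0.19) did not pass (limma adjusted p = 0.548). Of 18 genes of Polycomb repressive complex 1, Cbx7 gave the 1 call in miR-181 mice and 0 were called in GFP mice. Its paralogues Cbx2, Cbx6 and Cbx8 stood at log2 changes of -0.07, 0.17 and -0.32 in miR-181 mice, with limma adjusted p between 0.158 and 0.867. The list's median was 0.02 in miR-181 mice and -0.02 in GFP mice.

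The summed level of neuron markers stood lower and immune cell markers higher on the same injected sides. Their part in the values of Carm1 and Cbx7 was not tested. The summed level of 8 neuron markers ran from 4006 to 4625 on the miR-181 injected sides, against 4758 to 4954 on the uninjected sides, and from 4595 to 4693 against 4621 to 4919 in GFP mice. In miR-181 mice 0 of the 8 neuron markers passed (limma; 5 had an unadjusted p under 0.05). The list was mixed, with log2 changes from -0.31 to 0.10 and a median of -0.15. Rbfox3, a nuclear protein of most neurons, stood at -0.14 (95% interval -0.26 to -0.01; limma adjusted p = 0.174). The labelled tissue carried its defining dopamine genes, and Th, which encodes tyrosine hydroxylase, averaged 254 ± 89.1 on the miR-181 injected sides and 304 ± 60.8 on the uninjected sides (SD, n = 3 each). Of 8 dopamine neuron markers 0 passed in either set (limma; 1 in miR-181 mice and 0 in GFP mice had an unadjusted p under 0.05), with median log2 changes of -0.35 in miR-181 mice and 0.12 in GFP mice. Pitx3, a transcription factor of these neurons, stood at 4.69, 2.02 and 5.18 on the miR-181 injected sides of mice 1, 2 and 3, against 6.50, 8.96 and 6.51 on the uninjected sides (log2 -0.88; limma adjusted p = 0.158). Slc18a2, the vesicular monoamine transporter, stood at 117, 38.2 and 73.4 against 119, 119 and 94.8 on the same sides (log2 -0.67; limma adjusted p = 0.321). Both were lowest on the injected side of mouse 2. Without that mouse the calls of Carm1 and Cbx7 were lost, and the calls among all genes fell from 908 to 107. The calls of Carm1 and Cbx7 were kept when the injected library of mouse 2 alone was left out. They were lost without the uninjected library of mouse 1, 2 or 3 or the injected library of mouse 3. In mice 1 and 3 the log2 changes were -0.32 and -0.49 for Carm1 and -0.36 and -0.33 for Cbx7. The part of dopamine neurons in those calls was not tested.

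Tgfbr1 (ENSMUSG00000007613, chr4:47353222-47414931, plus strand) encodes the type I receptor kinase that passes transforming growth factor beta signals to SMAD proteins. It stood at 21.8, 26.1 and 21.2 on the miR-181 injected sides of mice 1, 2 and 3, and at 13.0, 12.7 and 14.7 on the uninjected sides. All 3 injected libraries lay above all 3 uninjected libraries. The log2 change was 0.75 ± 0.10 (SE; 95% interval 0.51 to 0.99; limma adjusted p = 0.0126), higher in 3 of 3 mice at 0.72, 1.01 and 0.51. On the GFP injected sides it stood at 12.6, 9.53, 12.9 and 12.9, against 11.6, 10.4, 9.92, 9.57 and 10.1 on the uninjected sides. There 3 of 4 mice were higher on the injected side and the library of mouse 2 lay below all 5 uninjected libraries, with a log2 change of 0.20 (95% interval -0.03 to 0.42; limma adjusted p = 0.596). Among 17 genes of transforming growth factor beta signalling Tgfbr1 was the 1 call in miR-181 mice, and 0 of 16 tested were called in GFP mice. The list's median log2 change was 0.15 in miR-181 mice and 0.09 in GFP mice. Tgfbr2, the type II receptor that binds the ligand first, and the ligand Tgfb1 had log2 changes of 0.73 and 0.74 in miR-181 mice (limma adjusted p = 0.0981 and 0.166), set against 0.43 and 0.36 in GFP mice (limma adjusted p = 0.146 and 0.492). Smad7, an inhibitor of the pathway that has itself been reported as a miR-181 target, stood at -0.13 in miR-181 mice and 0.10 in GFP mice (limma adjusted p = 0.246 and 0.761).

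Mcl1 (ENSMUSG00000038612, chr3:95658788-95663176, plus strand) encodes a short-lived prosurvival protein of the BCL2 family. It stood at 43.8, 50.9 and 49.4 on the miR-181 injected sides of mice 1, 2 and 3, and at 37.5, 36.1 and 39.5 on the uninjected sides. The groups did not overlap, and the log2 change was 0.34 ± 0.07 (SE; 95% interval 0.17 to 0.51; limma adjusted p = 0.0415), higher in 3 of 3 mice. With mouse as a block it did not pass (limma adjusted p = 0.0596). On the GFP injected sides it stood at 38.8, 36.7, 36.7 and 37.6, against 35.7, 32.5, 32.5, 35.9 and 37.2 on the uninjected sides. It was higher in 4 of 4 GFP mice with overlapping groups, at a log2 change of 0.11 (95% interval -0.01 to 0.23; limma adjusted p = 0.58).

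The summed levels of immune cell markers were higher on the miR-181 injected sides, where Tgfbr1 and Mcl1 rose. They were also higher on the GFP injected sides, where neither gene passed. Of 16 microglia and macrophage markers 13 rose in miR-181 mice and 12 in GFP mice, and their summed level ran from 1537 to 2606 on the miR-181 injected sides, against 652 to 668 on the uninjected sides, and from 961 to 1264 against 497 to 668 in GFP mice. Of these markers 0 were at 0 in any group. Aif1, a calcium-binding protein of microglia, averaged 54.1 ± 16.6 on the miR-181 injected sides and 12.9 ± 2.54 on the uninjected sides (SD, n = 3 each), whereas the homeostatic microglia receptor P2ry12 averaged 41.5 ± 1.52 on the injected and 35.7 ± 3.41 on the uninjected sides and did not pass (limma adjusted p = 0.16). Of 11 T, NK and B cell markers 9 were tested in miR-181 mice and 6 rose, while in GFP mice 2 were tested and 0 passed. Testing needed a mean of 1 over both sides. Cd3e, Cd3g, Cd8a and Nkg7 averaged between 0.232 and 0.472 on the uninjected miR-181 sides, so they reached it through the injected sides. In GFP mice these genes were not tested, and each stood higher on the injected side in 4 of 4 mice. The summed level of the 11 markers ran from 17.4 to 102 on the miR-181 injected sides, against 2.19 to 5.13 on the uninjected sides, and from 8.55 to 13.9 against 2.57 to 5.25 in GFP mice. Cd3e, a chain of the T cell receptor complex, averaged 6.54 ± 4.86 on the miR-181 injected and 0.472 ± 0.318 on the uninjected sides. The part of these cells in the values of Tgfbr1 and Mcl1 was not tested. Gfap, the astrocyte filament, rose in both sets, by 0.97 log2 units in miR-181 mice and 0.83 in GFP mice (limma adjusted p = 0.0206 and 0.0492, with the calls kept in 2 of 7 and 2 of 10 fits that left out a library or mouse).

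**Figure D2:**
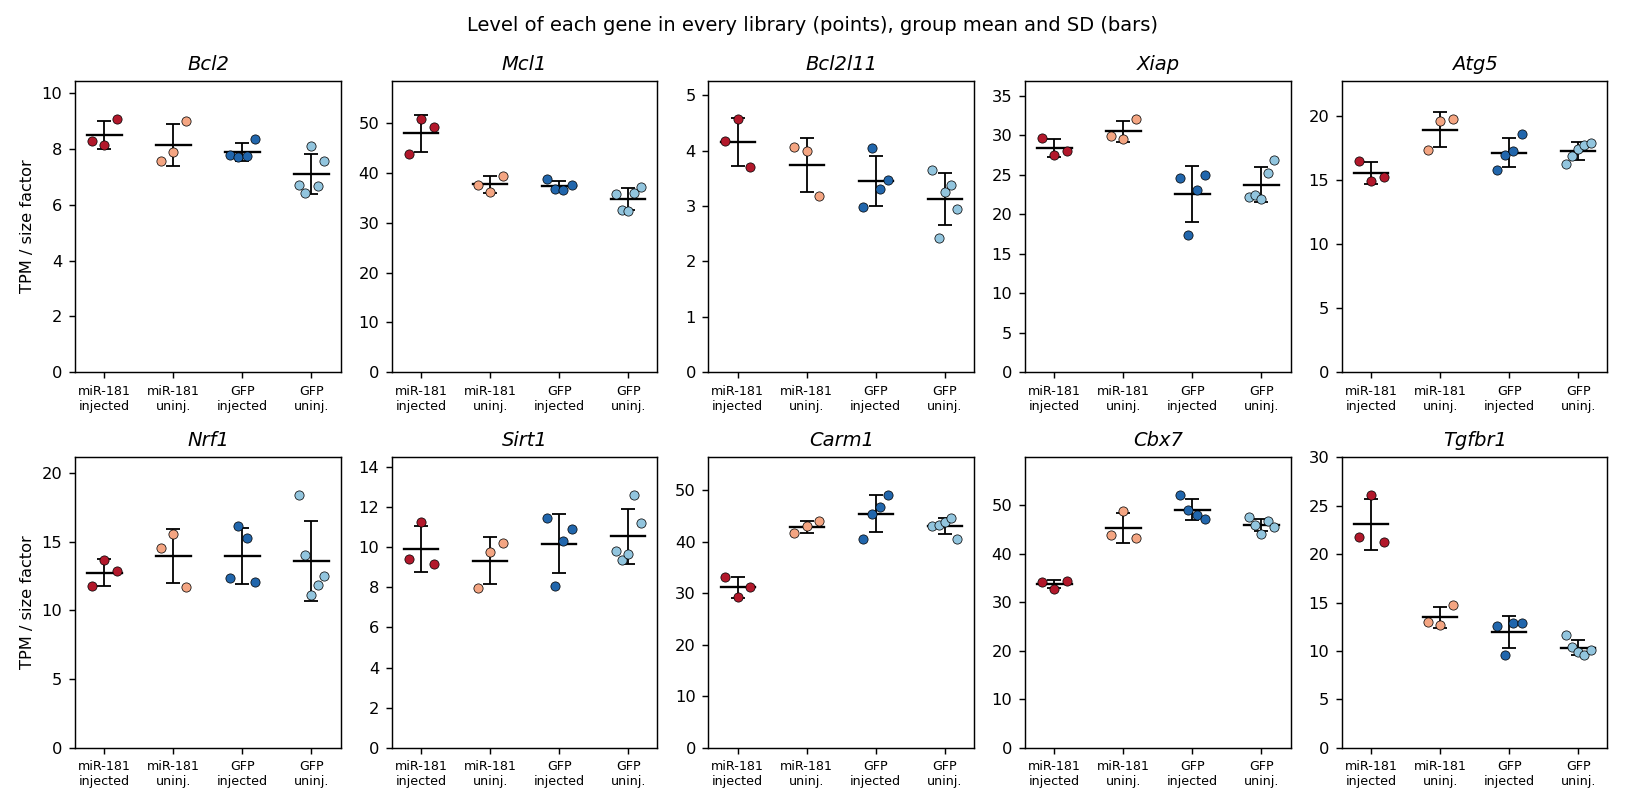
Abundance (TPM divided by a size factor) of the 10 genes in each of the 15 libraries, with points for libraries, lines for group means and bars for SD. Within the miR-181 set the 3 injected libraries lie below the 3 uninjected ones for Carm1, Cbx7 and Atg5 and above them for Tgfbr1 and Mcl1, and within the GFP set the groups overlap for all 10 genes.

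The other survival genes did not pass in either set. Bcl2, the founding prosurvival gene, ran from 8.15 to 9.08 on the miR-181 injected sides and from 7.57 to 8.99 on the uninjected sides, a log2 change of 0.06 (95% interval -0.17 to 0.30; limma adjusted p = 0.766). On the GFP injected sides it ran from 7.71 to 8.38, against 6.41 to 8.11, with a log2 change of 0.15 (95% interval -0.05 to 0.35; limma adjusted p = 0.662). Bcl2l11, which encodes the cell death protein BIM, ran from 3.71 to 4.57 on the miR-181 injected sides and from 3.18 to 4.07 on the uninjected sides. Its log2 change was 0.13 in both sets, with 95% intervals of -0.21 to 0.48 in miR-181 mice and -0.19 to 0.44 in GFP mice. Xiap, a caspase inhibitor, ran from 27.5 to 29.7 on the miR-181 injected sides and from 29.6 to 32.1 on the uninjected sides. It stood lower in 3 of 3 mice with groups that overlapped slightly, at -0.10 (95% interval -0.25 to 0.04; limma adjusted p = 0.354). On the GFP side Xiap stood at -0.08 (95% interval -0.33 to 0.16). For these 3 genes the intervals in miR-181 mice reach no lower than -0.25 log2 units.

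Some relatives of these survival genes rose in miR-181 mice and most did not pass. Of 8 prosurvival BCL2 family genes 7 were tested and 4 rose in miR-181 mice, namely Mcl1 and the haematopoietic paralogues Bcl2a1a, Bcl2a1b and Bcl2a1d, with log2 changes of 2.49, 2.14 and 2.30 (limma adjusted p = 0.0273, 0.0109 and 0.0142). The 3 Bcl2a1 copies are near identical and reads may be shared among them, and they kept their calls in 1, 3 and 2 of 7 fits that left out a library or mouse. Bcl2a1a and Bcl2a1d averaged 0.593 and 0.407 on the uninjected miR-181 sides, so they reached the mean of 1 needed for testing through the injected sides. With changed scaling, filter, pseudocount, trend or block their log2 changes ran from 2.03 to 3.17 and from 1.82 to 3.02. In GFP mice Bcl2a1a and Bcl2a1b stood higher on the injected side in 4 of 4 mice, each at a log2 change of 1.21. Neither passed there (limma adjusted p = 0.124 and 0.0798), and Bcl2a1d was not tested. Bcl2l1 and Bcl2l2, the BCL-XL and BCL-W genes, stood at log2 changes of 0.06 and 0.12 in miR-181 mice. Of 13 proapoptotic family genes 12 were tested and 0 passed in either set (5 in miR-181 mice and 0 in GFP mice had an unadjusted p under 0.05), Bmf and Bax, a BH3-only protein and a pore former, coming closest in miR-181 mice at 0.70 and 0.26 (limma adjusted p = 0.0545 and 0.117). Of 14 genes for inhibitor of apoptosis proteins, their antagonists and caspases, 3 rose in miR-181 mice, Xaf1 by 2.01, Birc3 by 1.19 and Casp8 by 1.14 log2 units (limma adjusted p = 0.0139, 0.0398 and 0.0484). Xaf1 passed in 2, and Birc3 and Casp8 each in 1, of 7 fits that left out a library or mouse, where the adjusted p of Birc3 and Casp8 reached 0.181 and 0.244. XAF1 is an interferon-induced antagonist of XIAP, cIAP2 (Birc3) is a ubiquitin ligase of tumour necrosis factor signalling and caspase 8 starts death receptor signalling. Xaf1 rose in GFP mice too, by 0.79 (limma adjusted p = 0.015), the 1 call of that list there. With mouse as a block Birc3 did not pass (limma adjusted p = 0.052). The median log2 changes of the prosurvival, proapoptotic and caspase lists were 0.34, 0.20 and 0.13 in miR-181 mice, set against 0.13, 0.06 and 0.05 in GFP mice.

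Atg5 encodes a protein that is joined to ATG12 and needed to lengthen the autophagosome membrane. It stood at 16.5, 14.9 and 15.2 on the miR-181 injected sides of mice 1, 2 and 3, and at 17.3, 19.6 and 19.7 on the uninjected sides. The groups did not overlap, yet the log2 change of -0.27 ± 0.08 (SE; 95% interval -0.46 to -0.08) did not pass over all genes (limma adjusted p = 0.101; unadjusted p = 0.0111). By mouse it differed by -0.07, -0.38 and -0.36. In the authors' deposited table Atg5 had a natural-log coefficient of -0.197 with q-values of 0.0315 and 0.0762 in their pair of tests, on either side of 0.05. The GFP injected sides held 15.8, 16.9, 17.2 and 18.6, against 16.2, 16.8, 17.4, 17.7 and 17.9 on the uninjected sides, a log2 change of -0.01 (95% interval -0.15 to 0.13; limma adjusted p = 0.975). Of 22 core autophagy genes 0 passed in either set (limma; 6 in miR-181 mice and 0 in GFP mice had an unadjusted p under 0.05), and the medians were 0.01 in miR-181 mice and 0.00 in GFP mice. Rb1cc1, a subunit of the kinase complex that starts autophagy, stood closest to the threshold in miR-181 mice at -0.28 (limma adjusted p = 0.0534).

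Groups without overlap were common in the miR-181 set, where 30.5% of tested genes had 3 injected libraries all above or all below the 3 uninjected ones. Among the 10 genes this held for 5, namely Carm1, Cbx7, Tgfbr1, Mcl1 and Atg5. In GFP mice it held for 4.29% of tested genes and for 0 of the 10.

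Nrf1 and Sirt1 showed no difference larger than the spread between libraries. Nrf1 ran from 11.7 to 13.7 on the miR-181 injected sides and from 11.7 to 15.6 on the uninjected sides, with a log2 change of -0.12 (95% interval -0.40 to 0.16; limma adjusted p = 0.606). In GFP mice it stood at 0.05 (95% interval -0.28 to 0.38), while single GFP mice differed by between -0.55 and 0.44. Sirt1, a deacetylase that depends on nicotinamide adenine dinucleotide, ran from 9.15 to 11.2 on the miR-181 injected sides and from 7.98 to 10.2 on the uninjected sides, with a log2 change of 0.09 (95% interval -0.21 to 0.39; limma adjusted p = 0.731). In GFP mice it stood at -0.05 (95% interval -0.32 to 0.22). Of 12 regulators of mitochondrial biogenesis and of 7 sirtuins 0 passed in either set. In miR-181 mice their medians were -0.08 and 0.09, and the smallest p of each list belonged to Pprc1 (log2 0.18) and Sirt5 (log2 -0.16), with limma adjusted p = 0.136 and 0.104. These 0 counts come from limma, by which 2 of the 12 and 2 of the 7 had an unadjusted p under 0.05 in miR-181 mice.

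**Figure D3:**
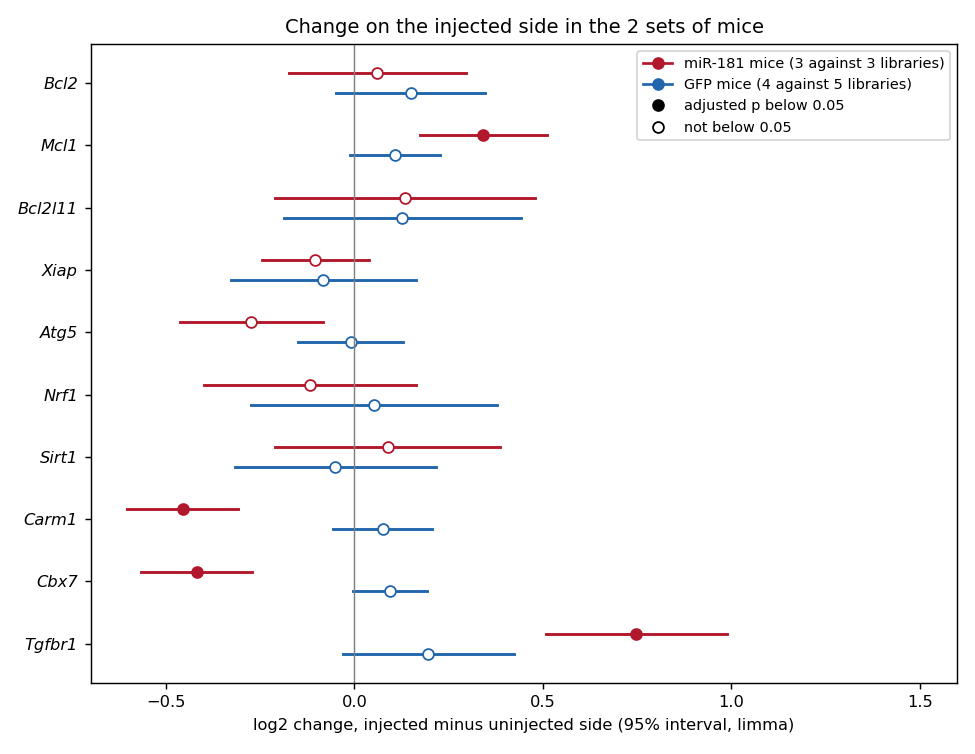
Log2 change of the injected minus the uninjected side with 95% intervals from limma, red for miR-181 mice and blue for GFP mice, filled where the adjusted p was below 0.05. The 4 filled points are Tgfbr1 at 0.75, Mcl1 at 0.34, Cbx7 at -0.42 and Carm1 at -0.46, all in miR-181 mice, and all 10 GFP points are open.

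Genes with an 8-base match lay at both ends of the range of changes. The 5 genes with an 8-base match ran from -0.46 to 0.75 log2 units in miR-181 mice (median 0.06) and from 0.07 to 0.20 in GFP mice (median 0.13). The 4 genes with 7-base matches only ran from -0.27 to 0.34 in miR-181 mice (median -0.01) and from -0.08 to 0.11 in GFP mice. Across the tested genes with an annotated 3′ UTR the medians in miR-181 mice were -0.10 for 884 genes with an 8-base match, -0.04 for 2522 with 7-base matches only and 0.02 for 10877 with none. Of these, 6.79%, 2.70% and 0.818% were called lower, while 3.96%, 3.53% and 4.73% were called higher. Genes with a match also tend to have longer 3′ UTRs, and the part of length in these values was not tested. In GFP mice the same medians were -0.04, -0.02 and 0.01.

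The change in each mouse was then compared between the 2 sets, which addresses whether the miR-181 side differed from a side given a vector without the microRNA. The vector, its dose, the sequencer and the library set changed together with the set and cannot be told apart. Cbx7 differed by -0.51 ± 0.08 log2 units (SE; 95% interval -0.69 to -0.33; 3 miR-181 mice against 4 GFP mice), with 3 of 3 miR-181 mice lower on the injected side and 4 of 4 GFP mice higher. Carm1 also differed by -0.51 (95% interval -0.70 to -0.31), all 3 miR-181 mice lying below all 4 GFP mice. Neither passed over all 15451 genes tested (limma adjusted p = 0.0813 and 0.0903), where 1 gene was called, or 0.00647%. By unadjusted p, Cbx7 stood at rank 28 and Carm1 at rank 47 of these genes. Of 7 fits that left out 1 mouse, both passed in 1, that without miR-181 mouse 1 (limma adjusted p = 0.0345 for Cbx7 and 0.0271 for Carm1). In that fit 306 genes were called in all.

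Tgfbr1 differed by 0.56 (95% interval 0.17 to 0.94; limma adjusted p = 0.197), Atg5 by -0.28 (95% interval -0.51 to -0.04; limma adjusted p = 0.268) and Mcl1 by 0.21 (95% interval 0.03 to 0.39; limma adjusted p = 0.278). With Cbx7 and Carm1 these made 5 of the 10 genes with an unadjusted p under 0.05, against 15.3% of all tested genes. Bcl2, Bcl2l11, Xiap, Nrf1 and Sirt1 differed by between -0.15 and 0.12, with limma adjusted p between 0.743 and 0.976. The intervals of Bcl2l11 (-0.51 to 0.56) and Nrf1 (-0.67 to 0.38) were wide enough to hold the differences found for Cbx7 and Carm1.

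**Figure D4:**
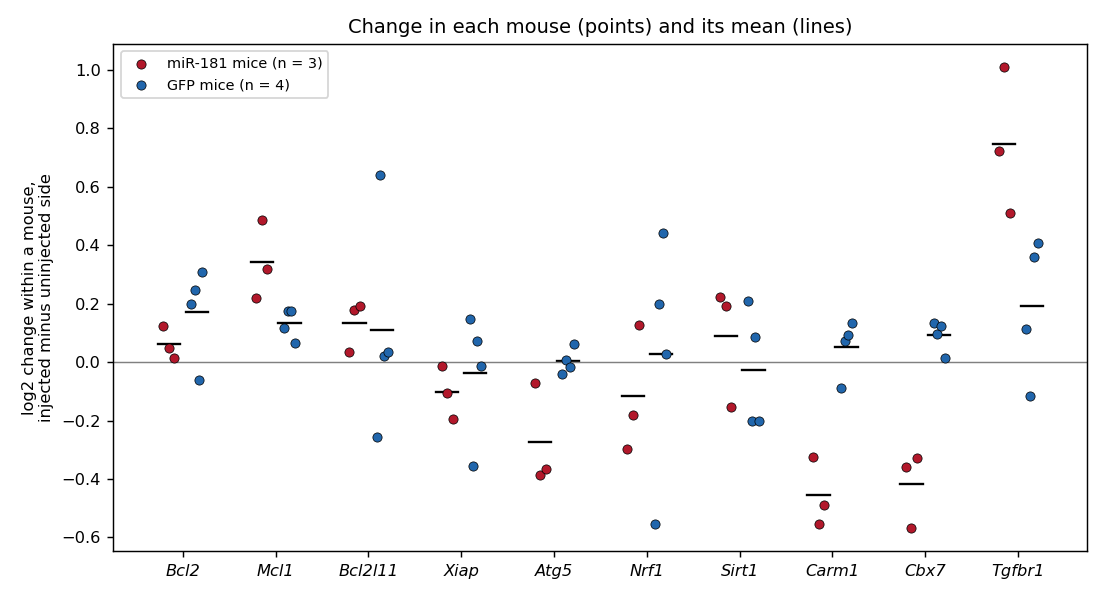
Log2 change of the injected minus the uninjected side in each mouse, with red points for 3 miR-181 mice, blue points for 4 GFP mice and lines for means. For Cbx7 the 2 sets lie on opposite sides of 0, and for Carm1 the 3 miR-181 points lie below the 4 GFP points. For Atg5 the nearest points are -0.07 in miR-181 mouse 1 and -0.04 in GFP mouse 1. The share of all tested genes without overlap between sets was not counted, and 0 of the 10 passed for this difference (limma).

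The calls in miR-181 mice rested on few libraries. Carm1 and Cbx7 kept their calls under 8 of 8 changes of scaling, filter, pseudocount, trend or block, and lost them without both libraries of mouse 2 (limma adjusted p = 0.118 and 0.12), or without the uninjected library of mouse 1, 2 or 3 or the injected library of mouse 3 (limma adjusted p up to 0.0766 and 0.0705, log2 changes between -0.48 and -0.36). Tgfbr1 lost its call without the uninjected library of mouse 1 or 2 (up to 0.0729), or both libraries of mouse 2 (0.0945). Without a filter or an intensity trend Mcl1 did not pass (limma adjusted p = 0.0801 and 0.0818), and it passed in 1 of the 6 fits that left out 1 library, that without injected mouse 1 (up to 0.164 in the others, and 0.3 without mouse 2). In the authors' deposited table the q-values of the 4 genes in the second of their tests were 0.013 for Carm1, 0.023 for Cbx7, 0.0144 for Tgfbr1 and 0.0325 for Mcl1.

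In each group of libraries the order of levels was led by Cbx7, Carm1 and Mcl1, on a scale that corrects for transcript length. On the miR-181 injected sides Mcl1 came first at 48.0 ± 3.73, followed by Cbx7 at 33.7 ± 0.833 and Carm1 at 31.2 ± 2.0 (SD, n = 3). On the uninjected sides of the same mice Cbx7 came first at 45.3 ± 3.04, then Carm1 at 42.9 ± 1.17 and Mcl1 at 37.7 ± 1.66. Cbx7 and Carm1 were within their spread of each other in these mice on the uninjected side. Tgfbr1 stood in place 5 on the miR-181 injected sides and in place 7 on the uninjected sides. Sirt1, Bcl2 and Bcl2l11 closed the order in both groups of miR-181 mice, at 9.93 ± 1.14, 8.51 ± 0.498 and 4.15 ± 0.432 on the injected sides and 9.33 ± 1.18, 8.15 ± 0.748 and 3.75 ± 0.489 on the uninjected sides.

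Genes with the most similar pattern were sought over the 15 libraries after the mean of each set was taken away, which leaves the difference between sides in the pattern. Closest to Carm1 were Mast1, Ube2v1 and Mpi (Pearson r between 0.92 and 0.93), and among the closest to Cbx7 were Ube2v1 and Idh3g (r = 0.921 and 0.906). Closest to Tgfbr1 were Trafd1, Cd53 and Pik3cg (r between 0.937 and 0.940), and closest to Mcl1 were Rtp4, Parp9 and Cxcl13 (r between 0.958 and 0.962). Among the 10 genes themselves Carm1 correlated with Atg5 at 0.87 and with Cbx7 at 0.81, and Tgfbr1 with Mcl1 at 0.85, whereas Carm1 and Mcl1 stood at -0.77. The libraries share their set, sequencer and mouse, so these values describe the libraries.

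Of 23 other reported targets of miR-181, 20 were tested and 0 passed in either set (limma; 4 in miR-181 mice and 2 in GFP mice had an unadjusted p under 0.05). Their median log2 change was 0.00 in miR-181 mice and -0.03 in GFP mice. For the difference between sets 1 of the 20 had an unadjusted p under 0.05, against 15.3% of all tested genes. That gene was Smad7 at -0.30 log2 units, which did not pass (limma adjusted p = 0.148; unadjusted p = 0.00331). The smallest p in miR-181 mice belonged to Ptpn22, a phosphatase of lymphocytes, at 1.24, and to Cox11, an assembly factor of cytochrome c oxidase, at -0.34 (limma adjusted p = 0.0943 and 0.119). Ptpn22 and Cox11 had 0 seed matches in their longest 3′ UTRs of 207 and 379 bases. Prox1, with 4 matches, and Timp3, with 3, both stood at -0.03 in miR-181 mice.

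**Figure D5:**
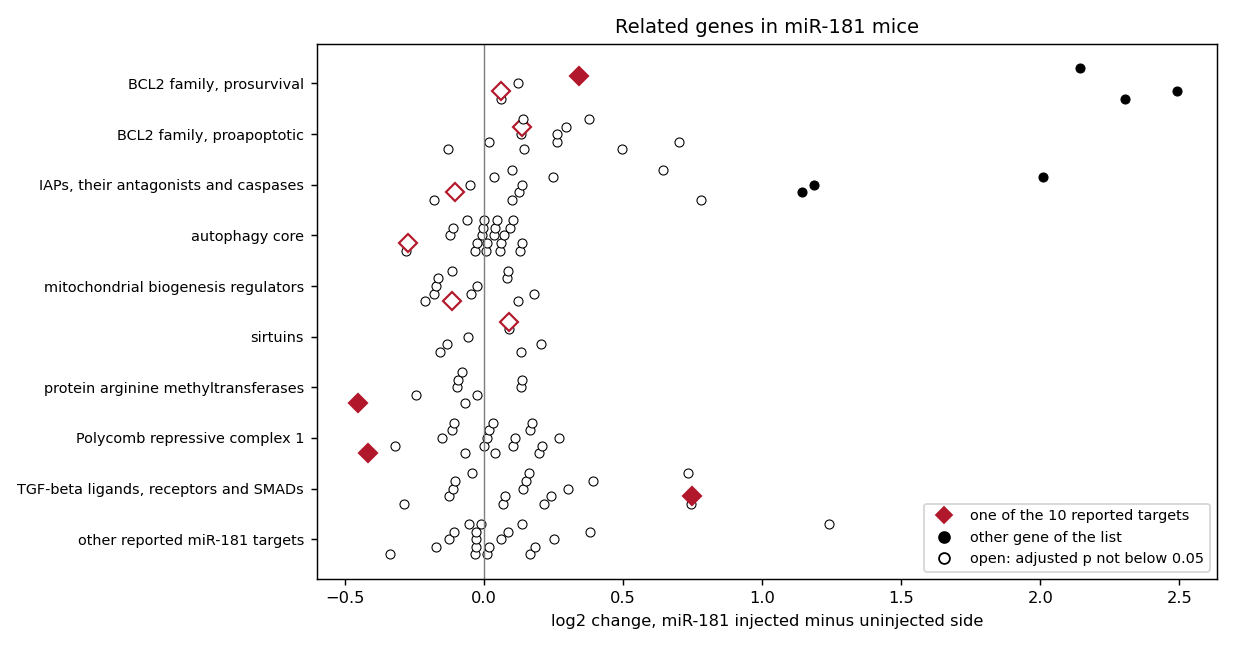
Log2 change in miR-181 mice of the genes related to the 10 reported targets (red diamonds), 1 row for each list, filled where the adjusted p was below 0.05. Carm1, Cbx7 and Tgfbr1 are the single filled points of their lists, and the 3 Bcl2a1 genes and Xaf1 lie furthest right.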

How the data were processed

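Substantia nigra RNA was selected for polyA and sequenced with strand kept, as 75-base pairs (miR-181 set) or 50-base pairs (GFP set), per the labels' protocols. kallisto 0.43.1 and sleuth 0.30.0 were used on GRCm38, per the submitters' processing notes. The deposited signal of each library was taken to be TPM over a library size factor, inferred from sums of 970505 to 1040288, and levels of the separately deposited tables were compared only as changes within mice. The deposited natural log coefficients, mean natural-log counts, p-values and q-values, score statistic and variances come from the authors' models, per the file headers, and their log base was inferred.

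Of 36660 rows with values, 395 that repeated a symbol with identical values were left out, which was decided with the data in view. limma 3.58.1 in R 4.3.3 was fitted to log2(value + 0.5) with an intensity trend, on genes with a mean of at least 1, for injected against uninjected sides in each set and for the change per mouse between sets. Scripts were tested on simulated data. Seed matches were counted with Python 3.11.15. The members and lists were chosen with earlier results of these data known. Always named were the 10 genes, 6 cell type markers and up to 4 called genes per list (up to 2 where 0 passed), with the 3 genes most like each called member, of which 1 is not reported here. Some relatives named beside them (Prmt1, Prmt5, Cbx2, Cbx6, Cbx8, Tgfbr2, Tgfb1, Smad7, Bcl2l1, Bcl2l2, Prox1 and Timp3) were picked with their values known.

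Per the labels, mouse numbers name the animal that gave each pair of sides, so they pair the libraries. Deviations from group means correlated between sides at 0.183, 0.140 and 0.257 for the miR-181 vector and at 0.192, 0.0947, 0.0177 and 0.122 for the GFP vector. The settings varied were pseudocount and filter, median centring, quantile normalization, no trend, mouse as a block and each library or mouse left out. TPM keep no depth, so values carry no counting intervals.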

Additional observations from a re-analysis of the deposited data

Results flagged for a closer look

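In GFP mice, the change of Cbx7 lay above 0 in 4 of 4 mice while in miR-181 mice it lay below 0 in 3 of 3. The difference was -0.51 log2 units and did not pass (limma adjusted p = 0.0813).

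A single library stood apart from the rest of its group in 3 of 32 groups of 4 or 5 libraries examined, where chance gives about 1 in 20. Bcl2 stood at 8.38 in the GFP injected library of mouse 4, against 7.71 to 7.78 in the other 3. Tgfbr1 stood at 9.53 in the GFP injected library of mouse 2, against 12.6 to 12.9 in the other 3. Without that library the log2 change of Tgfbr1 in GFP mice was 0.30 and did not pass (limma adjusted p = 0.19). Cd3e stood at 0.634 in the GFP uninjected library of mouse 1, against 0 to 0.10 in the other 4.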

How the results depend on the processing

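Of the settings tried, the total of 908 calls in miR-181 mice depended most on filter, trend and libraries, being 315 without a filter, 449 without an intensity trend, 107 without both libraries of mouse 2 and 117 to 1924 with 1 library left out. The number of the 10 genes called was 3 or 4 under scaling, filter, pseudocount, trend or block, 0 without mouse 2 and 0 to 4 with 1 library left out. In GFP mice the total of 206 became 136 at a mean of at least 5, and 108 to 255 with 1 library left out, with 0 of the 10 called in each fit. The difference between sets gave 4 calls at a mean of at least 5, 0 without a filter, 3 without a trend and 0 to 306 with 1 mouse left out, of which 0 to 2 were among the 10. Leaving out whole mice was chosen after seeing the data. Causes were not tested.

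Mouse as a replicate block gave 718 calls in miR-181 mice (570 higher and 148 lower) and, on the 4 GFP mice with both sides, 135 (133 higher and 2 lower), against 108 on the same libraries with no block. Of the 10 genes Mcl1 alone lost its call (limma adjusted p = 0.0596). Atg5 in GFP mice stood at 0.0032 with the block and equally without it once the mouse 5 library was left out.

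Seed matches stood in 5 of the 10 genes with 8 bases required, in 10 over all annotated 3′ UTRs, and in 0 coding sequences.

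Signs turned only for genes that did not pass. In miR-181 mice Bcl2 stood at -0.0040 with median centring, and with quantile normalization Bcl2 stood at -0.055, Bcl2l11 at -0.034 and Sirt1 at -0.011. Th stood at 0.027 without mouse 2. Sirt1 ran from -0.014 to 0.15 with 1 library left out. In GFP mice Atg5 stood at 0.00695 without mouse 1, and with 1 library left out Atg5 ran from -0.049 to 0.027, Nrf1 from -0.020 to 0.16, Rbfox3 from -0.089 to 0.025, Sirt1 from -0.11 to 0.051 and Xiap from -0.14 to 0.034. Between sets Bcl2l11 stood at -0.025 with median centring, at -0.066 with quantile normalization and between -0.098 and 0.20 with 1 mouse left out. Bcl2l11 could not be fitted at a mean of at least 5. Depth per library is unknown, which limits the least abundant gene, Bcl2l11, most in reads.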
